A study of Ambystoma mexicanum with 9 samples.

Results

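Of the 9 arrays of the series 6 are described here, the 3 of axolotl spinal cord taken 1 day after injury with ivermectin (1dpi_IVM) and the 3 taken 1 day after injury without it (1dpi). They were chosen by their sample names, and all 20035 probe sets that are not array controls were compared. In 1dpi_IVM the drug was injected into the central canal, the fluid-filled channel of the cord, and a piece of cord was then cut out. The study's text gives water as the vehicle of the control injection, while the sample labels call the 1dpi injury a crush and name no injection, so the injuries of both groups may not have been the same. The labels and the methods state no dose of ivermectin. The 3 arrays of uninjured cord (0dpi) share the model and give the level before injury. All animals were axolotls 2 to 3 cm long, 10 of them were pooled for each array, and each array took 150 ng of their total RNA. P values therefore measure the spread between pools and not between animals, and no strain, sex or age is stated.

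Ivermectin holds open chloride channels of the glycine receptor family, and at high concentrations it acts on some other receptor channels and on nuclear import. Opening a chloride channel moves the resting potential of a cell toward the equilibrium potential of chloride, which depolarizes cells that hold much chloride. The axolotl rebuilds its cord from ependymoglia, the ciliated cells that line the central canal and start to divide in the days after injury. The comparison asked which transcripts of the cord differ 1 day after injury when the drug is present from the start.

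The tissue was cord together with tissue around it. Neuronal NEFM had mean log2 levels of 10.12 in 1dpi_IVM, 10.35 in 1dpi and 9.64 in 0dpi, where the highest negative control mean was 3.47. Glial GFAP and myelin MBP had group means of 9.97 to 11.79, and muscle CKM and epithelial EPCAM, which a clean cord would lack, of 12.71 to 14.28. In such a mix, fewer cells of a type and less RNA per cell cannot be told apart. Across probe sets, arrays of 1dpi_IVM correlated with those of 1dpi at 0.9673 to 0.9684, against 0.9978 to 0.9982 among 1dpi_IVM arrays and 0.9979 to 0.9987 among 1dpi arrays. The arrays of 1dpi_IVM correlated with those of 0dpi at 0.9962 to 0.9968, and those of 1dpi with 0dpi at 0.9708 to 0.972. Probe sets are not independent replicates, so these values describe the arrays only. Bacterial poly-A transcripts added to the RNA before labelling were 0.65 lower on the log2 scale in 1dpi_IVM than in 1dpi, with means of 7.44 in 1dpi_IVM, 8.08 in 1dpi and, in 0dpi, 7.54. Arrays of 1dpi thus stood apart from both other groups in the spike-ins as in the correlations, which touches every comparison with 1dpi. No batch or date of the arrays is stated, so a batch and the group cannot be told apart. The arrays were brought to 1 distribution before 1 value per probe set was made. Every difference below is therefore set against the rest of the same array. The deposited probe set values still differed slightly, with array medians of 5.84 in 1dpi and 5.88 to 5.89 in 1dpi_IVM. Scaled to those spike-ins, the median of all probe sets would lie 0.65 higher in 1dpi_IVM, and falls smaller than that would become positive differences.

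Of 20035 probe sets, 10828 (54.0%) differed between 1dpi_IVM and 1dpi at an adjusted p below 0.05 in limma, 5813 higher (29.0%) and 5015 lower. Scaled to the spike-ins, 17530 would be higher and 1122 lower, so that 94.0% of calls would be higher, against 53.7% as deposited. Counts of gene groups given with that scaling are to be read against these 17530 and 1122 of 20035 probe sets. The 3 values of 1dpi_IVM and the 3 of 1dpi did not overlap in 60.4% of probe sets. One probe set stood for each of 8639 genes with a symbol, and 4877 of these genes (56.5%) were called, 2622 higher (30.4%) and 2255 lower (26.1%). Groups were apart in 63.0% of genes, and the median difference of all genes was 0.002 on the log2 scale. Counts of gene groups below, as deposited, are to be read against these shares. For groups of bright genes the counts of the brightest probe sets, given next, are the nearer measure.

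Most of these differences were small. From the 5th to the 95th percentile of probe sets, the log2 difference ran from -0.89 to 0.89. A called change of at least 2-fold was found in 787 probe sets that were higher and 776 that were lower, and a change of at least 4-fold in 76 that were higher and 168 that were lower. At least 8-fold, 16 were higher and 51 lower. The share called grew with the level of the probe set, from 21.3% through 51.2% and 71.3% to 72.4% over 4 equal bins from dim to bright. In the brightest bin, with mean levels from 7.95 up, 2175 of 5009 probe sets were higher and 1450 lower. An interval of the difference (95%) lying wholly within 0.20 of 0 was reached by 2880 probe sets (14.4%). Within 0.10 of 0 it was reached by 7 genes, the ribosomal protein genes RPS2, RPS20, RPL13, RPS3, RPL35A and RPL36A and the elongation factor EEF2. Their levels were 13.7 to 14.2, close to the top of the array's scale of 14.6, where a probe set has little room to show a rise.

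**Figure D1:**
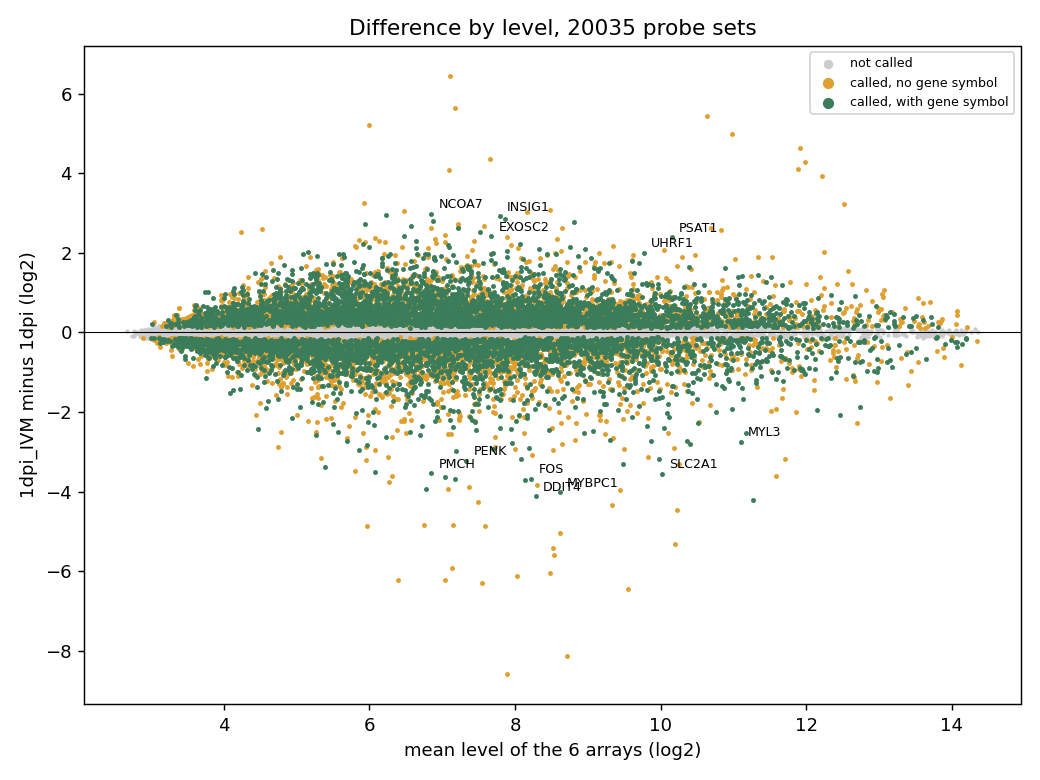
Difference between 1dpi_IVM and 1dpi (vertical axis, log2) against the mean level of the 6 arrays (horizontal axis, log2). Each point is 1 of 20035 probe sets, grey where it was not called, green where it was called and has a gene symbol, and orange where it was called without one. The points furthest from 0 in both directions are orange.

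The widest differences lay in probe sets with no gene symbol in the array's annotation. Of 9084 such probe sets 4671 (51.4%) were called. They held all 16 rises of at least 8-fold and 35 of the 51 falls of that size, and among the genes, each by its brightest probe set, 0 rose and 12 fell that far. The largest fall was in axo03430-f_s_at, which lay at 3.45, 3.65 and 3.69 in 1dpi_IVM, against 12.23, 12.18 and 12.16 in 1dpi and a mean of 3.70 in 0dpi (log2 -8.59 ± 0.09, SE, n = 3 arrays per group, limma adjusted p = 2.06e-12). Next came axo20861-f_s_at, with 4.82, 4.49 and 4.64 in 1dpi_IVM, against 12.83, 12.77 and 12.75 in 1dpi and a mean of 4.78 in 0dpi. Both were close to background in treated and in uninjured cord and near the top of the scale in 1dpi alone. The largest rise, in axo22484-f_at, was its mirror, with 10.17, 10.43 and 10.40 in 1dpi_IVM, against 3.96, 3.80 and 3.88 in 1dpi and a mean of 9.68 in 0dpi. Probe set axo30759-f_at did the same, at 9.98, 9.96 and 10.05 in 1dpi_IVM, against 4.36, 4.40 and 4.32 in 1dpi and a mean of 10.33 in 0dpi. No fold is given for these 4 probe sets, since their lower level is close to background. What they measure is not stated in the annotation used here.

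Among genes with a symbol, the 10 largest rises included NCOA7, INSIG1 and the cell division genes CCNB1, AURKA and FBXO5, and the 10 largest falls DDIT4, FOS, the sarcomere genes MYBPC1 and ACTN2, and PMCH. NCOA7, a coactivator of nuclear receptors, lay at 8.45, 8.34 and 8.25 in 1dpi_IVM, against 5.22, 5.40 and 5.45 in 1dpi (7.93-fold higher, limma adjusted p = 6.05e-10). INSIG1, which holds back sterol synthesis, lay at 9.32, 9.23 and 9.19 in 1dpi_IVM, against 6.11, 6.47 and 6.42 in 1dpi. In both genes the groups did not overlap, and uninjured cord, with means of 8.14 for NCOA7 and 8.65 for INSIG1, stood nearer to the treated one. Among the next rises were MAL (log2 2.11 ± 0.05, SE), a membrane protein of myelin and epithelia, GRHL1 (2.13 ± 0.11), a transcription factor of epidermis, FDPS (2.11 ± 0.05), an enzyme of the mevalonate pathway, KIF23 (1.98 ± 0.17) and PLK1 (1.96 ± 0.06), a motor and a kinase of cell division, CDC6 (1.96 ± 0.09), which loads the helicase onto DNA, and E2F3 (1.91 ± 0.06), a transcription factor of the S phase. RPGR, a protein of the ciliary transition zone, rose by 2.14 ± 0.28, with a wide error, and its 0dpi arrays lay at 8.22, 7.43 and 6.99. Among the next largest falls were CDH13 (-2.95 ± 0.09), a cadherin without an inner domain, BCAN (-2.91 ± 0.05), a proteoglycan of brain and cord matrix, and P2RX5 (-2.77 ± 0.09), an ATP-gated channel.

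Glucocorticoid-responsive genes, which adrenal stress hormone switches on in many vertebrate tissues, were lower with ivermectin. Of 18 measured genes of the list 13 were lower and 2 higher, with a median of -0.59. When arrays were scaled to the spike-ins 7 were higher and 6 lower, with a median of 0.06. TSC22D3 (also called GILZ), an inhibitor of inflammatory transcription and a standard read-out of the hormone, lay at 9.14, 9.24 and 9.23 in 1dpi_IVM, against 10.80, 10.84 and 10.85 in 1dpi and 9.80, 9.74 and 9.74 in 0dpi. The groups did not overlap, and treated cord was also below uninjured cord. The fall was 3.08-fold (log2 -1.62 ± 0.05, SE, n = 3, limma adjusted p = 2.02e-09). DUSP1, a phosphatase that shuts off stress-activated MAP kinases, lay at 7.74, 7.87 and 7.87 in 1dpi_IVM, against 10.32, 10.35 and 10.27 in 1dpi and 8.54, 8.69 and 8.61 in 0dpi. DDIT4, which inhibits mTOR, lay at 6.08, 6.38 and 6.21 in 1dpi_IVM, against 10.46, 10.37 and 10.21 in 1dpi and 7.51, 7.56 and 7.62 in 0dpi, the widest gap of any gene of the list. For NFKBIA, the inhibitor of NF-kB, the values were 7.54, 7.79 and 7.72 in 1dpi_IVM, against 10.28, 10.20 and 10.18 in 1dpi and 8.37, 8.39 and 8.44 in 0dpi. In all of these genes the order was treated, uninjured, injured, from low to high. ERRFI1, an inhibitor of the EGF receptor (-1.42 ± 0.08), and SGK1, a kinase that keeps sodium channels at the cell surface (-0.72 ± 0.05), had the same order. FKBP4, a cochaperone of the hormone receptor (0.43 ± 0.05), and TAT, a tyrosine-degrading enzyme of liver (0.34 ± 0.05), were the 2 higher genes. The receptor gene itself, NR3C1, did not pass the test (-0.15 ± 0.10, adjusted p = 0.245). Several of these genes also answer to other stresses, and hormone levels were not measured.

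**Figure D2:**
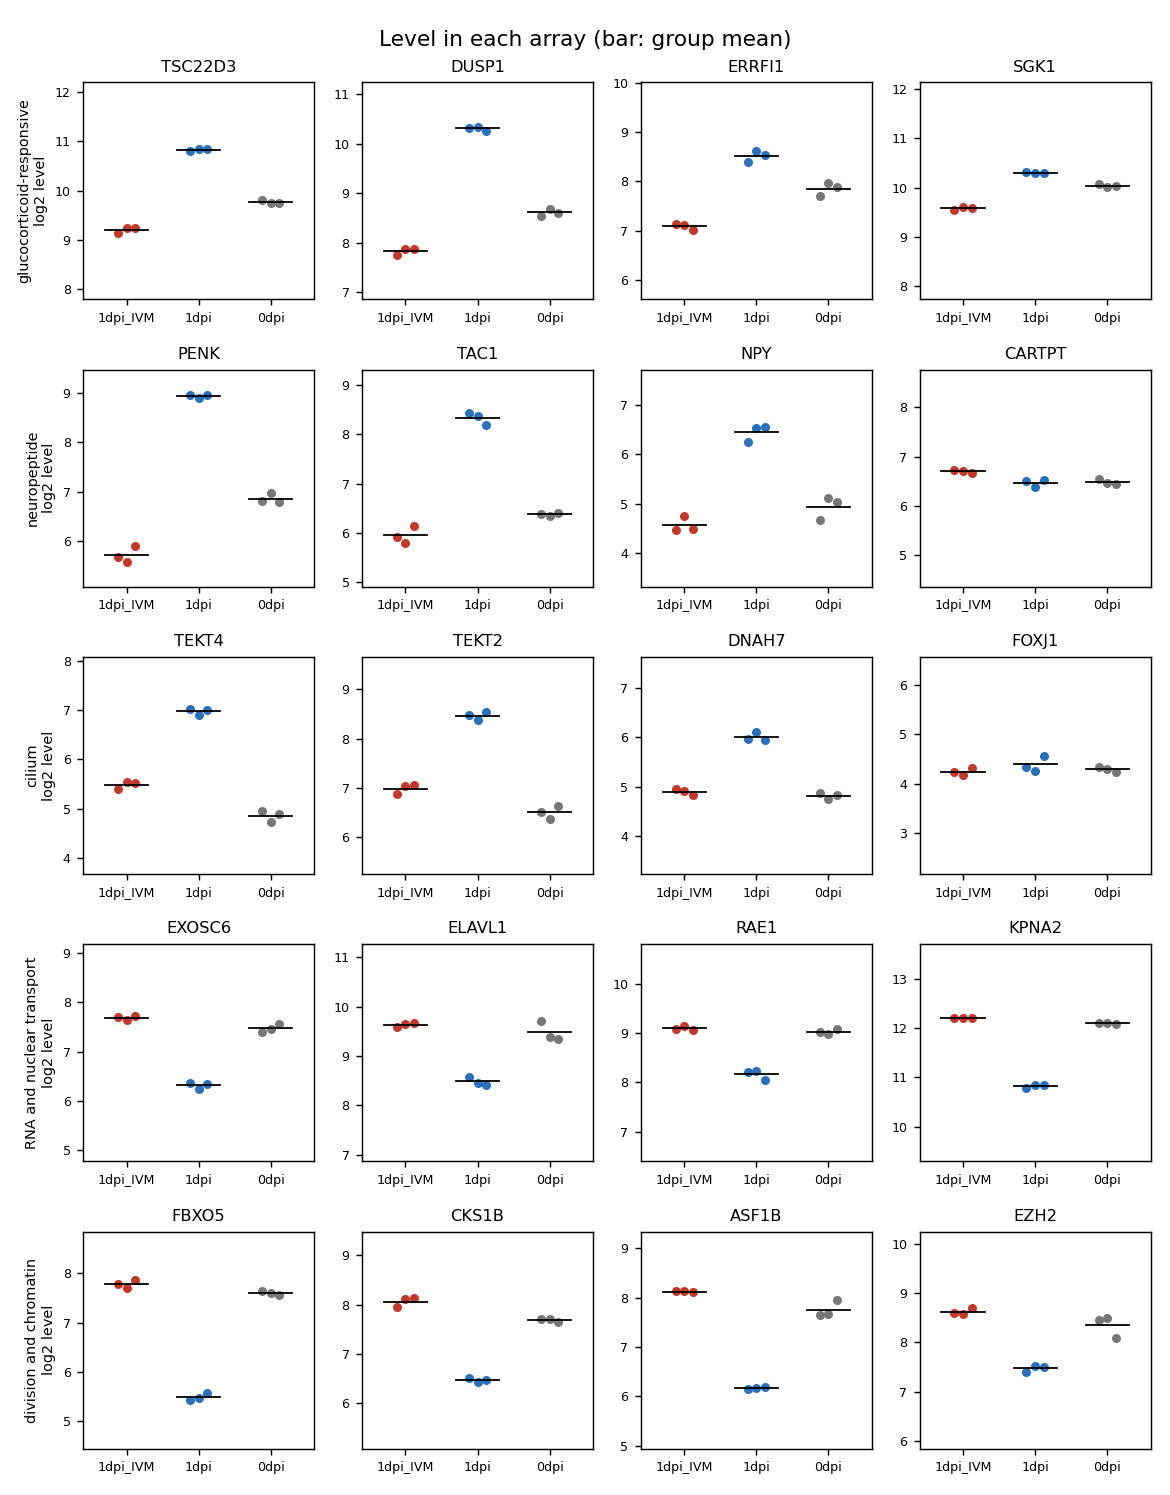
Log2 level in each array of 20 genes in 5 groups (rows), with 1dpi_IVM in red, 1dpi in blue and 0dpi in grey and a bar at each group mean, on vertical axes of equal span. The 3 arrays of a group lie close together, and in all panels but those of CARTPT and FOXJ1 the arrays of 1dpi_IVM are well apart from those of 1dpi.

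Neuropeptide precursors and the granins packed with them into secretory vesicles were lower in treated cord as well. Of 30 measured genes 23 were lower and 1 higher, and 10 fell at least 2-fold. The median was -0.56. When scaled to the spike-ins 12 were higher and 11 lower, with a median of 0.09. PENK, the precursor of the enkephalins, which dampen pain signals in the dorsal cord, lay at 5.67, 5.58 and 5.90 in 1dpi_IVM, against 8.95, 8.90 and 8.97 in 1dpi and 6.82, 6.97 and 6.79 in 0dpi (9.34-fold lower, limma adjusted p = 6.58e-10). TAC1, which encodes substance P, lay at 5.92, 5.80 and 6.15 in 1dpi_IVM, against 8.42, 8.37 and 8.18 in 1dpi and 6.39, 6.35 and 6.41 in 0dpi. NPY, a transmitter of inhibitory and sympathetic neurons, lay at 4.47, 4.75 and 4.49 in 1dpi_IVM, against 6.26, 6.54 and 6.56 in 1dpi and 4.67, 5.10 and 5.04 in 0dpi. None of these 3 overlapped between the treated and the injured group. PMCH, the precursor of melanin-concentrating hormone, fell by 3.53 ± 0.07 to close to the level of uninjured cord. Its means were 5.08 in 1dpi_IVM, 8.62 in 1dpi and 4.81 in 0dpi, and each treated array lay above each uninjured one. GRP, the gastrin-releasing peptide (-1.66 ± 0.07), ADCYAP1, the precursor of the peptide PACAP (-1.47 ± 0.10), and SST, somatostatin (-1.23 ± 0.07), fell less. CARTPT, another peptide precursor, was the exception, at 6.74, 6.72 and 6.67 in 1dpi_IVM, against 6.50, 6.39 and 6.54 in 1dpi.

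Other neuronal genes were counted beside the peptides. Of 14 neuron markers 7 were lower and 1, ELAVL4, was higher (median -0.25), while 8 were higher and 1 lower when scaled to the spike-ins (median 0.39), and their summed log2 level was 89.1 to 90.0 in 1dpi_IVM, against 93.8 to 94.9 in 1dpi. STMN2 and GAP43, proteins of growing axons, fell by 0.56 and 0.78, while the neurofilament gene NEFL lay at means of 8.37 in 1dpi_IVM and 8.47 in 1dpi (adjusted p = 0.285). Of 28 genes of glutamate and monoamine transmission 7 were lower and 0 higher (median -0.05), but 1 was lower and 26 higher when scaled to the spike-ins (median 0.60). The falls were led by GRIK2, a kainate receptor subunit (-1.41), and SLC17A6, the vesicular glutamate transporter of excitatory neurons (-0.64). The part of a change in the share of neurons in the fall of the peptides was not tested.

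Genes of motile cilia, the beating hairs of ependymal cells, were lower with ivermectin in 31 of 47 measured genes and higher in 0. The median was -0.38. When scaled to the spike-ins 27 were higher and 10 lower, with a median of 0.27. TEKT4, a tektin of the doublet microtubules, lay at 5.41, 5.53 and 5.51 in 1dpi_IVM, against 6.89 to 7.02 in 1dpi and 4.96, 4.73 and 4.89 in 0dpi (2.80-fold lower, limma adjusted p = 4.42e-08). TEKT2 behaved alike, at 6.87, 7.03 and 7.06 in 1dpi_IVM, against 8.47, 8.38 and 8.53 in 1dpi and 6.50, 6.38 and 6.62 in 0dpi. For both, treated cord was below injured cord and still above uninjured cord, with no overlap between any pair of groups. DNAH7, a heavy chain of inner dynein arms, lay at 4.95, 4.92 and 4.83 in 1dpi_IVM, against 5.97, 6.10 and 5.94 in 1dpi and 4.87, 4.76 and 4.83 in 0dpi, so that treated and uninjured arrays overlapped. RSPH9, a radial spoke protein (-1.37 ± 0.12), DNALI1, a light chain of dynein arms (-1.26 ± 0.15), and DNAH11, a heavy chain of outer arms (-1.13 ± 0.11), were lower too. FOXJ1, the transcription factor that switches this programme on, lay at 4.24, 4.17 and 4.32 in 1dpi_IVM, against 4.35, 4.26 and 4.56 in 1dpi. Its groups overlapped and it did not pass the test (-0.14 ± 0.08, adjusted p = 0.146). Of 11 ependymoglia markers 3 were higher and 4 lower, against 10 higher and 0 lower when scaled to the spike-ins, with a summed level of 89.3 to 89.4 in 1dpi_IVM, against 90.0 to 90.7 in 1dpi. HES1, a Notch target, was the highest of the risers (0.73), with MSI1 (0.26) and CDH2 (0.19), and FABP7, a fatty acid-binding protein of radial glia, fell most (-0.75). The part of the cell mix in the fall of ciliary genes was not tested.

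Genes that process RNA in the nucleus were higher with ivermectin. In the RNA exosome, which trims and degrades RNA from its end, 13 of 16 measured genes were higher and 0 lower, with a median of 0.34. EXOSC2, an RNA-binding cap subunit, lay at 8.89, 8.87 and 8.88 in 1dpi_IVM, against 6.35, 6.53 and 6.52 in 1dpi (5.32-fold, limma adjusted p = 7.17e-10). EXOSC6, a subunit of the ring, lay at 7.71, 7.65 and 7.72 in 1dpi_IVM, against 6.37, 6.24 and 6.36 in 1dpi and 7.40, 7.47 and 7.57 in 0dpi. No other subunit changed as much, the next being EXOSC3 (0.66 ± 0.06), and EXOSC10, the nuclear nuclease, did not pass the test (0.11 ± 0.07, adjusted p = 0.216).

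Of 28 splicing regulators of the SR and hnRNP families 23 were higher and 1, HNRNPA2B1, lower (-0.19 ± 0.07, adjusted p = 0.0496), with a median of 0.37. The call of HNRNPA2B1 was lost in 6 of 9 fits that each left out 1 array, at -0.17 to -0.21. ELAVL1, which stabilizes messages with AU-rich ends, lay at 9.58, 9.64 and 9.67 in 1dpi_IVM, against 8.58, 8.45 and 8.42 in 1dpi. PTBP1, a repressor of neuronal exons, lay at 12.03, 11.93 and 11.85 in 1dpi_IVM, against 10.94, 11.08 and 11.10 in 1dpi. CLK4, a kinase of SR proteins, rose by 1.17 ± 0.10 and TRA2B, a splicing enhancer, by 0.86 ± 0.04. In the spliceosome core 32 of 49 were higher and 2 lower, LSM5 (-0.15) and SF3B2 (-0.20), with a median of 0.28. SNRPA of the U1 particle (0.79) and LSM2 of the U6 particle (0.74) changed most, and none of the 49 reached 2-fold.

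At the nuclear pore 18 of 24 genes were higher and 0 lower (median 0.24), led by RAE1, an export and spindle protein, at 9.07, 9.15 and 9.06 in 1dpi_IVM, against 8.21, 8.23 and 8.05 in 1dpi (1.90-fold, limma adjusted p = 5e-07). The scaffold genes NUP43 (0.84 ± 0.06), NUP160 (0.70 ± 0.06) and NUP107 (0.65 ± 0.06) came next. Among 25 carriers and regulators of nuclear transport 15 were higher and 3 lower (median 0.31). KPNA2, an importin alpha of dividing cells, lay at 12.21, 12.20 and 12.20 in 1dpi_IVM, against 10.78, 10.84 and 10.84 in 1dpi (2.61-fold), and RCC1, which charges RAN on chromatin, rose by 0.87 ± 0.06. KPNA5, another importin alpha, went the other way, at 5.76, 5.93 and 5.78 in 1dpi_IVM, against 7.26, 7.33 and 7.37 in 1dpi. The other 2 lower genes were KPNA6 (-0.44 ± 0.05) and IPO5 (-0.26 ± 0.06), which had a second called probe set at 0.94.

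The described targets of ivermectin themselves were of low level apart from importins, and KPNA2 alone among them had a called change of at least 2-fold. Of 16 measured, 3 were higher and 7 lower, with a median of -0.16. Scaled to the spike-ins, 15 were higher and 0 lower, with a median of 0.49. The glycine receptor subunit GLRA1 lay at 3.99, 4.13 and 4.07 in 1dpi_IVM, against 4.18, 4.05 and 4.08 in 1dpi (adjusted p = 0.72), and GLRA3 did not pass the test either (-0.16 ± 0.13). GLRA2 lay at 4.79, 4.35 and 4.71 in 1dpi_IVM, against 4.93, 5.04 and 4.90 in 1dpi (-0.34 ± 0.12, limma adjusted p = 0.0325). Without the second 1dpi_IVM array its difference was -0.21 (adjusted p = 0.109), and the call was also lost without any 1 of the 1dpi arrays (-0.30 to -0.37). GLRB, the anchoring subunit, lay at 5.57, 5.47 and 5.44 in 1dpi_IVM, against 5.60, 5.68 and 5.69 in 1dpi (-0.16 ± 0.06). P2RX4, an ATP-gated channel that ivermectin potentiates, had means of 4.10 in 1dpi_IVM and 4.63 in 1dpi, a fall of 0.53 ± 0.12. P2RX7 (-0.27), CHRNA7 (-0.27) and the transporter ABCC1 (-0.33) were also called lower, and KPNA1 (0.49) and KPNA4 (0.34) higher beside KPNA2. The importin beta gene KPNB1 had means of 11.12 in 1dpi_IVM and 11.12 in 1dpi.

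**Figure D3:**
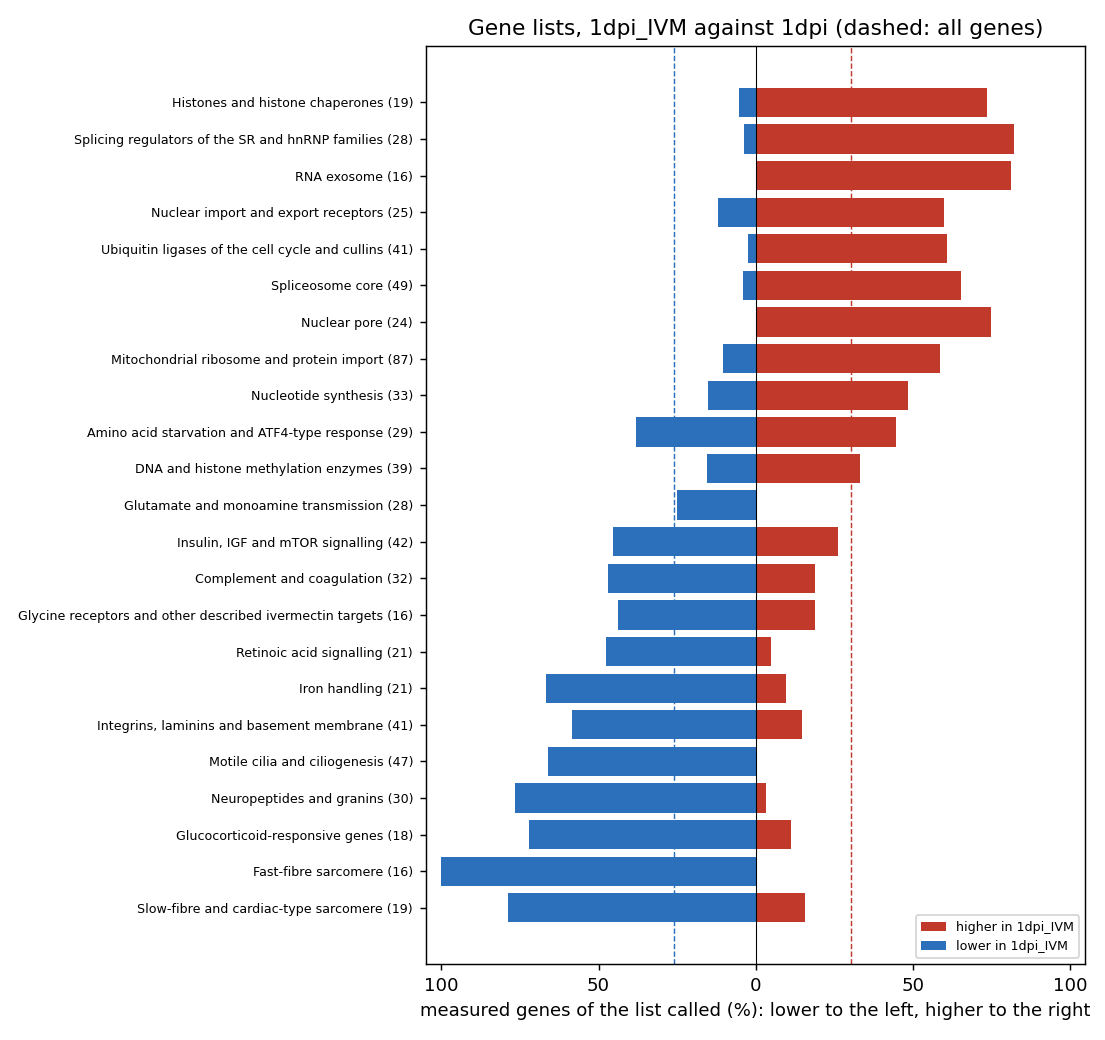
Share of the measured genes of 23 lists (rows, number measured in brackets) that were called higher in 1dpi_IVM (red, to the right) or lower (blue, to the left), in percent and ordered by the median difference of the list. Dashed lines give the shares of all 8639 genes, 30.4% higher and 26.1% lower. Lists of RNA processing, nuclear transport and histone chaperones stand at the top with few blue calls, and sarcomere, glucocorticoid-responsive, neuropeptide and cilium lists at the bottom.

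In the list of cell cycle ubiquitin ligases and cullins, which also holds their cofactors and regulators, 25 of 41 measured genes were higher and 1 was lower, ANAPC11 (-0.26 ± 0.05), with a median of 0.30 and 10 rises of at least 2-fold. FBXO5, which holds the anaphase-promoting complex in check until mitosis, lay at 7.79, 7.71 and 7.86 in 1dpi_IVM, against 5.43, 5.47 and 5.57 in 1dpi and 7.64, 7.60 and 7.56 in 0dpi (4.92-fold, limma adjusted p = 7.17e-10). CKS1B, a partner of the ligase SKP2, lay at 7.95, 8.11 and 8.13 in 1dpi_IVM, against 6.51, 6.43 and 6.46 in 1dpi. CDC20 and FZR1, the 2 activators of the anaphase-promoting complex, rose by 1.19 ± 0.05 and 1.43 ± 0.13. In each of these 4 genes the lowest treated array was above the highest injured one. The core subunits moved less, CDC23 by 0.61 and ANAPC4 by 0.33, and CDC16 did not pass the test (0.08, adjusted p = 0.25).

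Of the list of histones and histone chaperones 19 genes were measured, none of them a histone gene, and 14 were higher and 1, ANP32A (-0.52 ± 0.05), lower, with a median of 0.39. ASF1B, a carrier of histones H3 and H4 in dividing cells, lay at 8.13, 8.13 and 8.11 in 1dpi_IVM, against 6.15, 6.17 and 6.19 in 1dpi and 7.66, 7.66 and 7.96 in 0dpi (3.87-fold, limma adjusted p = 1.19e-08). Its paralogue ASF1A lay at a difference of -0.09 (adjusted p = 0.229). CHAF1A and CHAF1B, which load histones behind the replication fork, rose by 1.01 ± 0.07 and 1.09 ± 0.07, and NASP, a store of free histones, by 0.97 ± 0.05. Among 39 enzymes that methylate DNA or histones, or remove the mark, 13 were higher and 6 lower (median 0.03). When scaled to the spike-ins 38 were higher and 0 lower (median 0.68). EZH2, SUZ12 and EED, the core genes of the Polycomb complex that methylates histone H3 to keep genes silent, were all higher. EZH2, its enzyme, lay at 8.59, 8.57 and 8.70 in 1dpi_IVM, against 7.39, 7.53 and 7.50 in 1dpi, SUZ12 rose by 1.14 ± 0.09 and EED by 0.55 ± 0.07. KDM6B, which removes that mark, fell by 0.73 ± 0.06, and its relative KDM6A had a called difference of -0.34. UHRF1 (2.00 ± 0.06), which brings the methylase to new DNA, and SUV39H1 (1.48 ± 0.12), a methylase of silent chromatin, rose most, while DNMT1 did not pass the test (0.03, adjusted p = 0.688).

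Nucleotide synthesis rose in 16 of 33 genes and fell in 5 (median 0.17). The salvage kinases TK1 and DCK, which phosphorylate deoxynucleosides, rose by 2.68 ± 0.10 and 1.67 ± 0.11, and NME4, a mitochondrial nucleotide kinase, by 1.37 ± 0.07. CTPS2, which makes CTP, lay at 4.93, 4.72 and 4.86 in 1dpi_IVM, against 6.42, 6.21 and 6.41 in 1dpi, and AK1, an adenylate kinase abundant in muscle, fell by 1.16 ± 0.06. The other lower genes were UCK2 (-0.34), ATIC (-0.21) and SHMT1 (-0.14). In the mitochondrial ribosome and import machinery 51 of 87 genes were higher and 9 lower (median 0.22), with MRPL47 at 8.74, 8.64 and 8.73 in 1dpi_IVM, against 6.64, 6.54 and 6.92 in 1dpi, and TOMM20, the outer-membrane receptor for proteins, lower by 0.81 ± 0.06.

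Genes of growth arrest and the DNA damage checkpoint were split in the values as deposited, with 6 of 30 higher and 6 lower and a median of 0.05. When scaled to the spike-ins 24 were higher and 6 lower, with a median of 0.70. SESN1, a sestrin that restrains mTOR, lay at 6.25, 6.09 and 6.17 in 1dpi_IVM, against 8.10, 8.14 and 8.16 in 1dpi and 6.87, 7.06 and 6.92 in 0dpi (3.90-fold lower, limma adjusted p = 3.16e-09). GADD45B and GADD45G, damage-inducible regulators of stress kinases, fell by 1.95 ± 0.10 and 1.33 ± 0.05, and CCNG1, a cyclin induced by damage, by 1.01 ± 0.05. GADD45A of the same family was higher, at 8.15, 8.17 and 8.35 in 1dpi_IVM, against 7.59, 7.59 and 7.59 in 1dpi and 8.47, 8.43 and 8.41 in 0dpi. CHEK1, the kinase that stalls damaged S phase, rose by 1.03 ± 0.09. In insulin and mTOR signalling 11 of 42 genes were higher and 19 lower (median -0.08), but 33 higher and 5 lower when scaled to the spike-ins (median 0.57). The kinases RPS6KB1 (1.39 ± 0.09) and PDPK1 (1.31 ± 0.08) and the binding protein IGFBP2 (1.48 ± 0.07) rose, and IGFBP3, which sequesters IGF1, fell by 1.60 ± 0.07. In the amino acid starvation response 13 of 29 genes were higher and 11 lower (median 0.07), but 22 higher and 5 lower when scaled to the spike-ins (median 0.71). The serine enzymes PSAT1 and PSPH rose by 2.39 ± 0.05 and 1.85 ± 0.08, NUPR1, a stress-induced chromatin protein, fell by 1.08, and ATF4 itself lay at a difference of 0.07 (adjusted p = 0.305).

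Sarcomere genes were lower with ivermectin, with a larger median fall among slow-fibre than among fast-fibre genes. Of 19 slow and cardiac-type genes 15 were lower and 3 higher, with a median of -2.12. When scaled to the spike-ins 13 were lower and 6 higher, with a median of -1.47. All 16 fast-fibre genes were lower, with a median of -0.65. With the spike-in scaling 6 of them were lower and 7 higher, with a median of 0.00. MYL3, a light chain of slow myosin, lay at 9.72, 9.72 and 9.74 in 1dpi_IVM, against 12.51, 12.47 and 12.45 in 1dpi and 10.03, 9.93 and 10.00 in 0dpi (6.72-fold lower, limma adjusted p = 4.62e-11). MYBPC1, the slow myosin-binding protein, lay at 6.78, 6.51 and 6.50 in 1dpi_IVM, against 10.62, 10.64 and 10.60 in 1dpi. Its fast counterpart MYBPC2 fell less, at 9.08, 9.03 and 9.04 in 1dpi_IVM, against 11.16, 11.16 and 11.19 in 1dpi. ACTN2, the Z-disc actinin of all fibres, had a difference of -3.69 ± 0.10 and ACTN3, that of fast fibres, of -1.79 ± 0.08. The troponin pairs were ordered alike, with TNNC1, TNNI1 and TNNT1 of slow fibres at -2.74, -2.81 and -2.74, and TNNC2, TNNI2 and TNNT3 of fast fibres at -0.31, -0.66 and -0.63. The fast genes MYL1, CKM and PVALB lay at 14.2 to 14.3 in 1dpi, near the top of the scale, where the array compresses a difference. The 3 higher genes were MYL7, an atrial light chain (0.66 ± 0.06), ATP2A2, the calcium pump of slow fibres and of many other cells (0.56 ± 0.07), and ANKRD2, a stretch-induced protein (0.26 ± 0.05). Of the 13 skeletal muscle markers 13 were lower, with a summed level of 143.5 to 143.9 in 1dpi_IVM, against 160.3 to 160.7 in 1dpi. Their median was -0.75, but -0.10 when scaled to the spike-ins, where 6 were lower and 3 higher. The part of the amount of muscle cut with the cord was not tested.

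**Figure D4:**
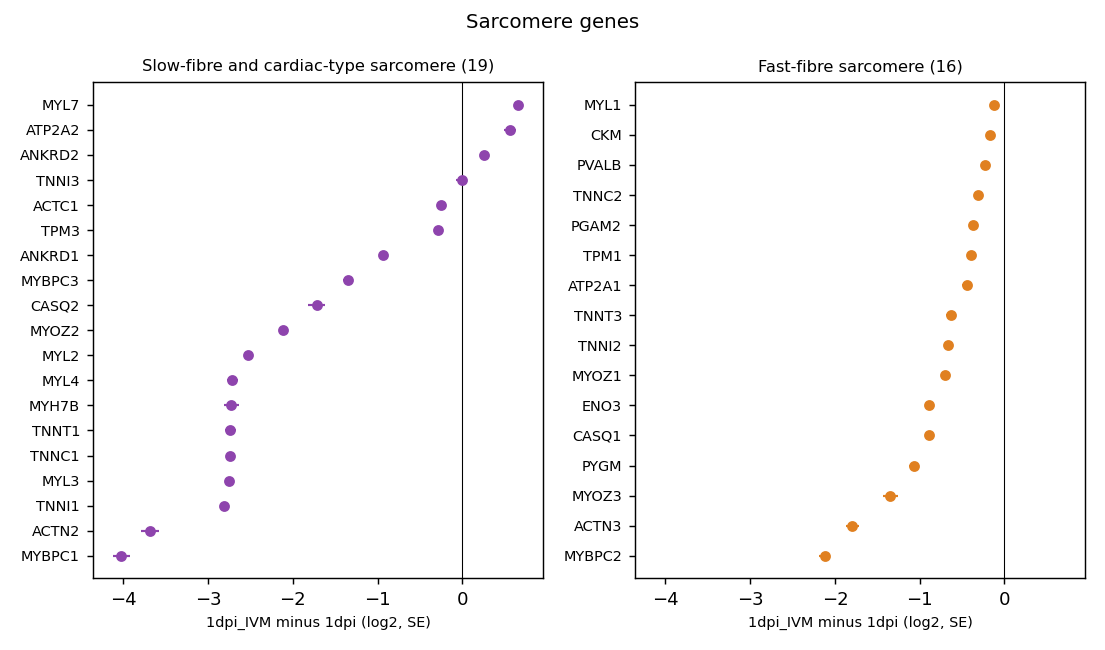
Difference between 1dpi_IVM and 1dpi (horizontal axis, log2, with SE, n = 3 arrays per group) of each measured slow and cardiac-type (left, 19) and fast-fibre (right, 16) sarcomere gene. The slow genes reach from 0.66 for MYL7 to -4.02 for MYBPC1, and the fast genes from -0.13 for MYL1 to -2.12 for MYBPC2.

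Integrins hold cells to the basement membrane, the sheet of laminins and collagens under epithelia, vessels and muscle. Of 41 integrin, laminin and basement membrane genes 24 were lower and 6 higher, with a median of -0.28, and 0.37 when scaled to the spike-ins. COL4A1, a chain of the main network collagen, lay at 9.22, 9.15 and 9.08 in 1dpi_IVM, against 10.79, 10.83 and 10.78 in 1dpi and 9.34, 9.40 and 9.15 in 0dpi (3.14-fold lower, limma adjusted p = 2.11e-08). COL4A2 (-1.80 ± 0.06), LAMA2, the laminin chain of muscle (-1.67 ± 0.12), and LAMA4, that of vessels (-1.62 ± 0.07), fell alike. LAMA4 had another called probe set at 0.27. FERMT1, the epithelial kindlin that activates integrins, lay at 8.44, 8.34 and 7.96 in 1dpi_IVM, against 6.76, 6.70 and 6.78 in 1dpi. The other higher genes were the integrins ITGA6 (0.75 ± 0.15), ITGA3 (0.50 ± 0.07), ITGA2 (0.38 ± 0.08) and ITGB4 (0.33 ± 0.07), and COL4A5 (0.28 ± 0.07). ITGA3 had another called probe set at -0.145. Of 14 fibroblast markers 10 were lower and 1, DCN, higher, with a summed level of 132.3 to 132.5 in 1dpi_IVM, against 145.1 to 145.5 in 1dpi. With the spike-in scaling 9 were lower and 4 higher. Of 9 epithelial markers 5 were higher and 1, EPCAM, lower, with 90.3 to 90.5 in 1dpi_IVM, against 88.0 to 88.5 in 1dpi. When scaled to the spike-ins 9 were higher and 0 lower. The part of these tissues in the changes was not tested.

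In iron and haem handling 14 of 21 genes were lower and 2 higher, SLC25A28 (0.20) and GLRX5 (0.15), with a median of -0.25, and 0.40 when scaled to the spike-ins. HMOX1, the inducible enzyme that breaks haem down, lay at 9.97, 10.01 and 10.09 in 1dpi_IVM, against 11.96, 11.94 and 11.95 in 1dpi and 10.59, 10.53 and 10.60 in 0dpi (3.80-fold lower, limma adjusted p = 6.6e-10). HPX, a plasma protein that binds free haem, fell by 1.50 ± 0.05, and the transferrin receptor TFRC did not pass the test (-0.09, adjusted p = 0.241). The 3 measured red cell markers, ALAS2, SPTB and SLC4A1, were all lower, with a summed level of 18.3 to 18.7 in 1dpi_IVM, against 22.1 to 22.4 in 1dpi, and the part of blood in the tissue was not tested. When scaled to the spike-ins 2 of these markers were lower and 1, SLC4A1, higher. Of 32 complement and coagulation genes 15 were lower and 6 higher (median -0.14, and 0.50 when scaled to the spike-ins). TFPI2, a protease inhibitor of the matrix (-1.93 ± 0.06), SERPING1, the inhibitor of complement C1 (-1.39 ± 0.09), and C9, which forms the lytic pore (-1.13), fell most, while complement C3 had a difference of -0.05 (adjusted p = 0.519). Of 12 leukocyte markers CTSS, CD68, LYZ, LCP1 and AIF1 were higher, by 0.31 to 0.75, and SPI1, LAPTM5 and CD74 were lower, by 0.38 to 2.24. CTSS, at 0.75 by its brightest probe set, had another called probe set at -2.07. The leukocyte markers had a summed level of 90.7 to 91.2 in 1dpi_IVM, against 91.2 to 91.6 in 1dpi. When scaled to the spike-ins 11 of them were higher and 1 lower (median 0.75).

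Retinoic acid, a patterning signal of the axolotl limb and cord, is made by ALDH1A enzymes and destroyed by CYP26 enzymes. Of 21 genes of this pathway 10 were lower and 1 higher, with a median of -0.18, and 0.47 when scaled to the spike-ins. The higher one was CYP26A1, at 7.64, 7.83 and 7.99 in 1dpi_IVM, against 5.76, 6.03 and 6.20 in 1dpi and 7.15, 7.17 and 7.33 in 0dpi (3.54-fold, limma adjusted p = 4.42e-07). CYP26B1, its relative, lay at 4.25, 3.99 and 4.05 in 1dpi_IVM, against 4.82, 5.22 and 4.51 in 1dpi. As deposited, the 2 degrading enzymes thus changed in opposite directions. The fall of CYP26B1 was little larger than the 0.65 by which the spike-in scaling raises 1dpi_IVM. The synthetic enzymes ALDH1A3 and ALDH1A1 fell by 1.00 ± 0.07 and 0.77 ± 0.06, and ALDH1A2 did not pass the test (-0.01, adjusted p = 0.92).

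Some called genes lay at or below the background of the array in 1dpi_IVM or in 1dpi. Among genes called lower, 65 had a 1dpi_IVM mean at or below the highest negative control mean. Among genes called higher, 26 had a 1dpi mean at or below it. Neither count required the other group to lie above that level, so a gene at background in both groups could be counted. The cut-off of 3.47 rests on only 3 negative control probe sets. It was the same for both groups, while the negative controls themselves were 0.09 lower in 1dpi_IVM than in 1dpi. In the dimmest of the 4 level bins 696 probe sets were called lower and 373 higher. SLC2A2, a glucose transporter of liver and gut, lay at 3.38, 3.56 and 3.26 in 1dpi_IVM, against 4.85, 4.84 and 4.88 in 1dpi, and TBX4, a transcription factor of the hindlimb, at 3.12, 3.19 and 3.24 in 1dpi_IVM, against 4.10, 4.36 and 4.50 in 1dpi. In the other direction CTBP2, a corepressor, lay at 4.03, 4.19 and 4.63 in 1dpi_IVM, against 3.22, 3.38 and 3.22 in 1dpi. No fold is given for these genes, since the lower level is only a bound.

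Probe sets of 1 gene did not always move together. Of 772 genes with 2 or more called probe sets, 166 (21.5%) had called probe sets in opposite directions, so a gene's value here stands for its brightest probe set only. HARBI1, a gene derived from a transposase, had the widest split of its 19 probe sets, from -2.62 to 2.21, and TPM1, a muscle tropomyosin, the next, from -3.93 to 0.84. TPM3, another tropomyosin, ran from -2.98 to 0.72, and FBN1, a fibrillin of elastic fibres, from -3.70 to 0.98. ATP6AP1, an accessory subunit of the proton pump, had 1 probe set at 1.52 and 1 at -1.57, with like mean levels of 7.10 and 6.60. The annotation used here does not say which transcripts or gene copies these probe sets measure.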

How the data were processed

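RNA of 9 pooled axolotl samples was measured on a custom Affymetrix array. The authors deposited log2 values made with RMA (background correction, quantile normalization over all arrays, 1 summary value per probe set) in Affymetrix Expression Console, tools that the submitters list without versions. The 45 control probe sets were left out and 20035 were tested with no filter. By their names 24 controls were taken as poly-A spike-ins and 18 as hybridization controls. The other 3, of the bacterial trp transcript, were taken as negative controls. An array has no read depth, so precision rests on 3 arrays per group. Gene symbols came from the platform annotation (10951 probe sets, 8639 genes), and the probe set of highest mean over 9 arrays stood for a gene.

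Groups came from the sample titles. The comparison used limma 3.58.1 under R 4.3.3, with 1 linear model over all 9 arrays with moderated variances, 2-sided, with Benjamini-Hochberg adjustment over 20035 probe sets and a call below 0.05. The test was checked on simulated data with 200 changed probe sets. It recovered 26 of 50 changes of 0.3 on the log2 scale and 49 of 50 of 0.6, with 13 false calls. Neither a shift of whole arrays nor a change in most probe sets was simulated, so the check does not cover these. Errors are standard errors unless given otherwise. Members and lists were chosen with earlier results of these data known, and no list was tested as a set. Named were the 25 largest rises and falls among genes that were called and had no overlap between groups, up to 6 members of each list by p with its largest changes, the ivermectin targets, genes with opposed probe sets, at background or with narrow intervals, list exceptions and markers. From these a selection is printed, and a few further list members were added after their values were seen. Alternatives were other samples, variance models, filters, scalings, call rules, a replicate block and leaving out each array.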

Additional observations from a re-analysis of the deposited data

How the results depend on the processing

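The count of called probe sets (10828, 5813 higher and 5015 lower) was 18652, 17530 higher and 1122 lower, with arrays scaled to the poly-A spike-ins, so that 94.0% of calls were higher in 1dpi_IVM in place of 53.7%. Each array took the same amount of total RNA, and the spike-ins were added to RNA before labelling. Neither scaling can therefore give the amount of RNA per cell. Which scaling is nearer to the amount of each transcript in that total RNA was not tested. An unadjusted p below 0.05 with at least 2-fold left 1563, 787 higher and 776 lower. Lower probe sets numbered 3257 without the dimmest 50%, where fewer were tested, and 3158 with arrays centred on the hybridization controls, where the cause was not tested. Leaving out 1 array at a time gave 9962 to 10828 called, 5380 to 5833 higher and 4568 to 4995 lower. With arrays centred on their median 5195 were higher and 6012 lower, so that 46.4% of calls were higher and the larger side changed. Each count stayed within 1.5 times there, as it did in the other alternatives. The count of probe sets with a narrow interval (2880) was 2791 in the 6 arrays alone and 2707 with a trended and robust variance.

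Of 209 genes named, 15 lost their call in at least 1 fit without 1 array: CAV3, CDH2, DCN, GLRA2, GLRB, GLRX5, HNRNPA2B1, KDM6A, LSM5, MSI1, MYL1, P2RX7, SHMT1, SLC4A1 and UCK2, none with a difference above 0.34 in size. Their adjusted p was then 0.0502 to 0.131. KDM6A lost it without the third 1dpi_IVM array (-0.26) and CAV3 without the second 1dpi array (0.16), and each of the others without any of several arrays. Array numbers do not pair the groups, since deviations of same-numbered arrays correlated at -0.225, -0.039 and -0.093. The replicate block gave 10492 calls, 5650 higher and 4842 lower. With arrays centred on the hybridization controls 32 of the 209 named genes lost their call. At an unadjusted p below 0.05 with at least 2-fold, 85 of them did.

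Scaled to the spike-ins, these called falls became positive differences (log2): ABCC1 0.32, ANAPC11 0.39, ANP32A 0.13, ATIC 0.44, CHRNA7 0.38, CKM 0.47, EPCAM 0.46, GFAP 0.47, GLRA2 0.31, GLRB 0.48, HNRNPA2B1 0.46, IPO5 0.39, KDM6A 0.31, KPNA6 0.21, LAPTM5 0.16, LSM5 0.50, MYL1 0.52, NEFM 0.42, P2RX4 0.12, P2RX7 0.38, PVALB 0.41, SF3B2 0.45, SHMT1 0.51, SLC17A6 0.004, SLC4A1 0.40, SPI1 0.27, STMN2 0.087, TNNC2 0.33, TNNT3 0.015, TPM1 0.26, TPM3 0.36 and UCK2 0.31. These genes without a call were then called higher: ALDH1A2 0.64, ASF1A 0.56, C3 0.60, FOXJ1 0.50, GLRA1 0.60, GLRA3 0.49, NEFL 0.55, NR3C1 0.50, RPL13 0.65, RPS20 0.65, RPS3 0.64 and TFRC 0.56. Another 9 named genes without a call were then called in the direction they already had, and 9 called genes kept their direction but lost their call. The medians of 16 of the 36 gene lists described changed sign with this scaling, and those of 2 with arrays centred on their median. The 3 arrays of pooled animals per group and the background of dim probe sets limit what can be called.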

Other observations

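Lists of lipid, message-decay and developmental genes are given here as counts, to be read against the 56.5% of all genes that were called. In fatty acid oxidation and lipid droplets 16 of 36 measured genes were lower and 6 higher, with a median of -0.12 (0.53 when scaled to the spike-ins). G0S2, an inhibitor of the lipase of lipid droplets, lay at 7.70, 7.87 and 7.93 in 1dpi_IVM, against 11.23, 11.09 and 11.09 in 1dpi and 9.17, 9.08 and 9.17 in 0dpi. CPT1A, which admits fatty acids to mitochondria, lay at 8.07, 8.09 and 8.07 in 1dpi_IVM, against 9.32, 9.38 and 9.35 in 1dpi. A dimmer called probe set of CPT1A, at a mean level of 4.1, had a difference of 0.27. Fatty acid and phospholipid synthesis had 10 of 31 genes higher and 9 lower, but 27 higher and 1 lower when scaled to the spike-ins. ELOVL6, which lengthens fatty acids, rose by 1.53 ± 0.05 (SE, n = 3 arrays per group, limma adjusted p = 5.57e-09).

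ZFP36 and ZFP36L2, relatives that target AU-rich messages for decay, changed in opposite directions. ZFP36 lay at 7.24, 7.32 and 6.71 in 1dpi_IVM, against 9.25, 9.14 and 9.33 in 1dpi, and ZFP36L2 at 6.92, 7.03 and 7.04 in 1dpi_IVM, against 5.55, 5.20 and 5.26 in 1dpi. Of 29 genes of mRNA decay 10 were higher and 7 lower, with a median of 0.04. When scaled to the spike-ins 27 were higher and 1 lower (median 0.69).

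Of 37 homeobox and neural patterning factors 12 were higher and 6 lower (median 0.00). With the spike-in scaling 37 were higher and 0 lower, at a median of 0.645, close to the 0.646 of all probe sets. ZIC1, a factor of the dorsal cord, lay at 6.31, 6.46 and 6.52 in 1dpi_IVM, against 5.21, 4.94 and 4.66 in 1dpi, and MEIS1, a cofactor of HOX proteins, rose by 1.22 ± 0.11. Among 21 myogenic regulators 10 were lower and 3 higher, but 1 lower and 15 higher when scaled to the spike-ins (median -0.10 and 0.55). MYOG, which drives muscle differentiation, fell by 1.60 ± 0.10, and EYA2, a cofactor of muscle and placode precursors, lay at 10.16, 10.21 and 10.14 in 1dpi_IVM, against 8.37, 8.45 and 8.42 in 1dpi and 9.94, 9.95 and 10.05 in 0dpi. The other 2 higher myogenic genes were ID3 and CAV3.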
